A study of Mus musculus with 8 samples.

Results

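Neurons store transmitter in synaptic vesicles and release it when calcium enters the nerve ending. The 29 genes described here encode the parts of that cycle, namely the calcium sensors (synaptotagmins), the SNARE proteins that fuse vesicle and plasma membrane with their disassembly factors, the complexins, the docking proteins Rab3a and Rims1, the vesicle membrane proteins, the synapsins and synucleins, the pumps and transporters that fill the vesicle, and the proteins that retrieve its membrane. They were chosen by name, and all probe sets that the platform annotation assigns to 1 of these genes alone were taken, which gave 72 of the 45101 probe sets on the array. A probe set is a group of short oligonucleotide probes that read 1 stretch of a transcript. Sensory neurons of cranial ganglia are excitatory, and their terminals use glutamate loaded by vesicular glutamate transporters.

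Total RNA from mouse was measured on 8 Affymetrix Mouse Genome 430 2.0 arrays, 4 titled Exp and 4 titled Ctrl, numbered 1 to 4 in each group. The description field of every sample gives the trigeminal ganglion, which holds the sensory neurons of the face, whereas the titles and the source field give brain and adrenal medulla. The labels state no genotype, strain, treatment, time, age or sex for either group, and they do not say what the Exp samples underwent. No label says that the arrays of a group came from separate animals, so p-values measure the spread between these 8 arrays alone, and that spread may be technical. Levels below are log2(signal + 16) after quantile normalization, a difference is Exp minus Ctrl on that scale, and a probe set was tested where its mean lay at or above the 40th percentile of all probe sets, a level of 8.45. Levels of different probe sets depend on their probes and are not set against each other.

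The labelled ganglion was checked against marker genes. Of the sensory neuron markers on the array, 21 of 21 were tested, among them the transcription factors Pou4f1 and Isl1, and the list mean ran from 13.63 to 13.72 in Exp and 13.63 to 13.78 in Ctrl. Of the central neuron markers, 4 of 10 were tested, with a list mean of 10.09 to 10.58 in Exp and 10.02 to 10.42 in Ctrl. The tested ones were Neurod6, Camk2a, Dlx1 and Dlx2, with mean levels over all arrays of 11.59, 10.73, 9.81 and 8.78, while Emx1, Emx2, Tbr1, Otx2, Gad1 and Gad2 lay below the filter. Of the chromaffin and sympathetic markers 8 of 12 were tested, with a list mean of 10.76 to 11.09 in Exp and 10.98 to 11.13 in Ctrl. They included Chgb at 14.33, Chga at 12.70, Th, the first enzyme of catecholamine synthesis, at 12.34, Gata2 at 10.88 and Ddc at 10.32. The rest were Pnmt, which makes adrenaline, at 10.08, and, near the filter, Slc18a1 at 8.72 and Hand1 at 8.67. The level of Pnmt is that of its brightest probe set, and its other ones lay at 6.52 and 6.28. Phox2a at 8.11, Hand2 at 7.58 and Gata3 at 5.90 lay below the filter. Dbh, which makes noradrenaline, lay just under the filter in its brightest probe set, with levels of 8.50, 8.42, 9.24 and 9.14 in Exp 1 to 4, against 8.34, 8.32, 7.43 and 8.15 in Ctrl 1 to 4. Its Exp arrays lay above its Ctrl arrays, and it was not tested. The sensory neuron markers on the array thus all passed the filter in their brightest probe set, with Prrxl1 at 15.47, Avil at 13.94 and the dimmest, Runx3, at 9.73. The other probe set of Runx3 lay at 6.48, below the filter. The central and the chromaffin and sympathetic lists passed it only in part. These marker levels do not settle whether RNA of another labelled tissue was present as well. Skeletal muscle markers (17 of 19 tested, 16 higher and 1 lower in Exp) had a list mean of 9.31, 9.92, 11.11 and 8.70 in Exp 1 to 4, against 8.83, 9.19, 8.91 and 9.25 in Ctrl 1 to 4, so Exp 3 stood apart. Schwann cell and satellite glia markers (16 of 17 tested, 13 lower and 3 higher in Exp) ran from 12.168 to 12.522 in Exp and 12.525 to 12.805 in Ctrl. Every Ctrl array lay above every Exp array, but Ctrl 2 only barely above Exp 4. Egr2 had by far the largest difference of the list, -2.66, and weighs most on its mean. Its levels were 9.02, 9.16, 7.36 and 11.04 in Exp 1 to 4, against 13.23, 9.15, 12.48 and 12.37 in Ctrl 1 to 4. Among the other lower genes, Plekhb1 differed by -0.53, Mbp by -0.34, Sox10 by -0.33 and Erbb3 by -0.016. The 3 higher ones were Gfra3 at 0.24, Dhh at 0.050 and Fabp7 at 0.016. The list without Egr2 was not examined. Of the epithelial markers 8 of 15 were tested, 7 higher and 1 lower in Exp. Their list mean was 9.57, 10.18, 10.35 and 9.12 in Exp 1 to 4, against 9.41 to 9.57 in Ctrl. These lists were chosen with earlier results of these data known.

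No vesicle or release gene differed between Exp and Ctrl past the threshold of the test. Of the 72 probe sets, 62 passed the filter and were tested, and these covered 28 of the 29 genes. The 10 below the filter were the single probe set of Slc17a7, 2 of Atp6v1b2 and 1 each of Syt7, Vamp1, Vamp2, Nsf, Napb, Syp and Dnm1. None of the 62 passed a false discovery rate of 5% in limma (smallest adjusted p = 0.999), where 0.0037% of all 27022 tested probe sets, or 0.00784% of all genes read by their brightest probe set, did. At an unadjusted p under 0.05 there were 4 member probe sets, or 6.45%, against 4.69% of all probe sets, of which 2 were higher in Exp (2.18% of all probe sets were) and 2 lower (2.5%). They belonged to Amph, Syt2 and Syn2. The count was 1 without Exp 4, 2 without Ctrl 2 or Ctrl 4 and 0 without Ctrl 3, and it was 6 without Exp 1. The groups did not overlap in 2 of the 62, or 3.23%, against 2.34% of all probe sets, namely 1 of Slc17a6 with Exp above Ctrl (1.06% of all probe sets) and 1 of Syn2 with Exp below Ctrl (1.28%). With each gene read by its brightest tested probe set, 13 genes were higher and 15 lower in Exp, with a median difference of -0.02, beside a median of -0.01 over the 12763 genes on the array with a tested probe set. The differences of these 28 genes ran from -0.22 (Syp) to 0.40 (Syt5), and the median size of a difference was 0.08, against a median SE of 0.13. A doubling in either direction lay outside the 95% interval of 28 of the 28 genes (95.2% of all genes), and a change of 1.5-fold for 22 of them (74.5% of all genes). Of all genes, 54.8% had negative differences in their brightest probe set. By role, the brightest probe sets of 6 of 6 synaptotagmins had positive differences, while those of the 2 synapsins, the 2 synucleins, Nsf and Napb, and Rab3a and Rims1 had negative ones. The remaining roles had both signs. Differences of the 6 synaptotagmins ran from 0.012 (Syt1, SE 0.13) to 0.40 (Syt5, SE 0.25). Those of the other 8 genes ran from -0.087 (Rab3a, SE 0.20) to -0.025 (Nsf, SE 0.12). The difference of Syt1 turned negative when arrays were centred on medians. Those of Syt1, Syt4, Syn2, Sncb, Nsf, Napb, Rab3a and Rims1 changed sign when 1 array or another was left out. With all tested probe sets read, 8 were higher and 3 lower among the calcium sensors, and 5 higher and 2 lower for Syt4 and Syt11. Of 10 further synaptotagmins and calcium-binding factors, given below, 8 were lower. In a ganglion sample, fewer neurons and less RNA per neuron cannot be told apart.

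**Figure D1:**
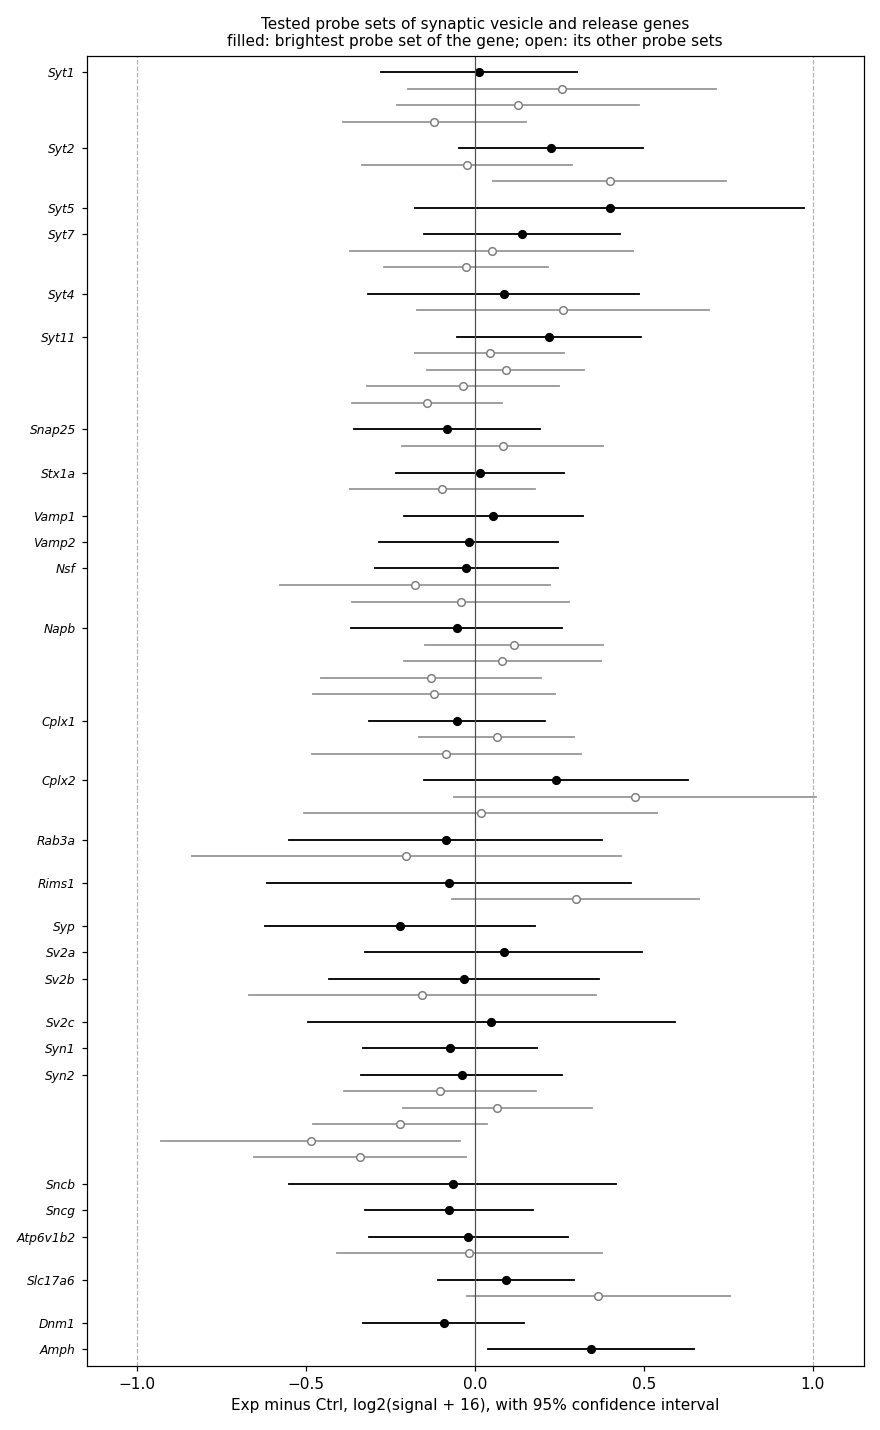
Difference between Exp and Ctrl on the log2(signal + 16) scale with its 95% confidence interval (limma, 4 arrays per group) for the 62 tested probe sets, ordered by the role of the gene. Filled points are the brightest probe set of each gene and open points its other probe sets; every filled point has an interval inside the dashed lines, which mark a doubling in either direction.

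Across the 8 arrays the level of a gene spanned between 0.23 (Slc17a6) and 1.44 (Syt5) in its brightest probe set. The mean level of the 28 genes was 12.63, 12.66, 12.82 and 12.76 in Exp 1 to 4, against 12.61, 12.86, 12.69 and 12.58 in Ctrl 1 to 4. Ctrl 2 held the highest level of 11 of the 28 genes and Exp 3 of 7, whereas the lowest level fell on Ctrl 4 for 9 genes and on Ctrl 1 for 7. The array with the highest list mean and the 2 arrays with the lowest were thus all Ctrl, and the 4 Exp arrays lay between them. The list mean of the sensory neuron markers was also highest in Ctrl 2, at 13.78, but was next highest in Ctrl 4, at 13.74, where the vesicle and release genes were lowest, and it was lowest in Ctrl 1, at 13.63. The part of neuron content in the levels of the vesicle genes was not tested.

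**Figure D2:**
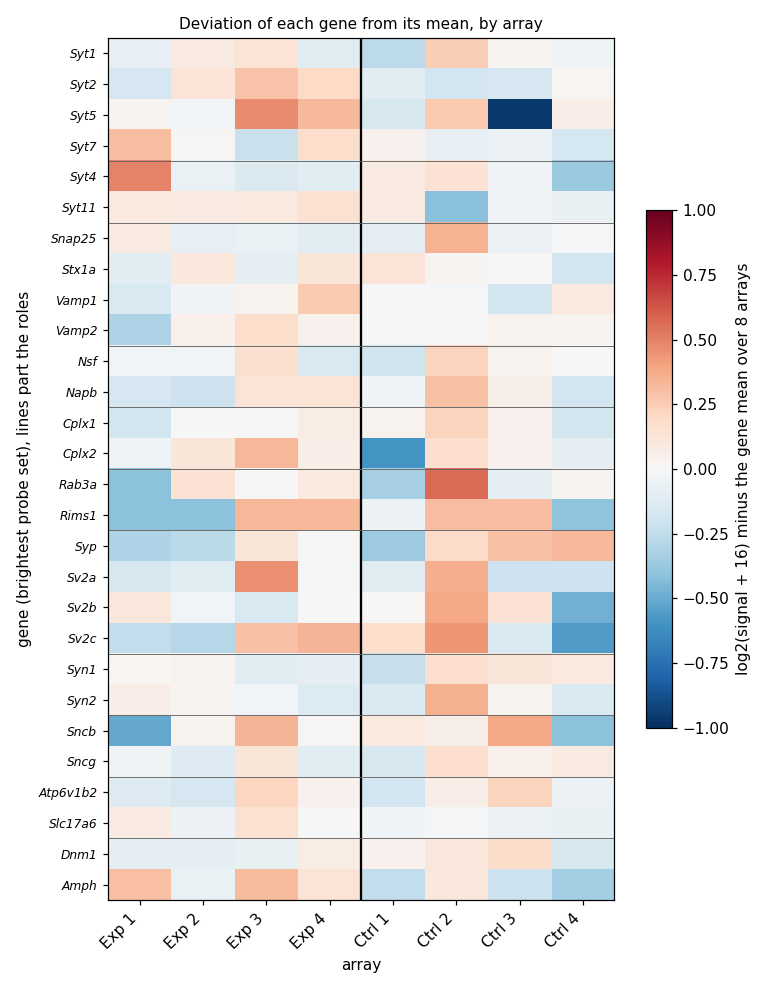
Level of each of the 28 tested genes (brightest probe set) on each array minus the gene's mean over the 8 arrays, in log2 units, with the 4 Exp arrays left of the 4 Ctrl arrays and lines between roles. Columns differ within each group, with Ctrl 2 mostly above and Ctrl 4 mostly below the gene means, and in no row do all Exp arrays lie to 1 side of all Ctrl arrays.

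The calcium sensors of release bind calcium through C2 domains and trigger fusion. Syt1, the sensor of fast synchronous release, had levels of 14.13, 14.30, 14.36 and 14.10 in Exp 1 to 4, against 13.96, 14.47, 14.25 and 14.17 in Ctrl 1 to 4 in its brightest probe set (1433884_at). The Ctrl arrays spanned the Exp arrays, and the difference was 0.012 (SE 0.13), with an interval of -0.28 to 0.30. Its 3 other probe sets differed by between -0.12 and 0.26. Syt2, the fast sensor of many hindbrain, spinal and peripheral synapses, had levels of 10.67, 10.97, 11.12 and 11.04 in Exp 1 to 4, against 10.73, 10.64, 10.67 and 10.85 in Ctrl 1 to 4 in 1440323_at. The groups overlapped through Exp 1, which lay below 3 of the Ctrl arrays, and the difference was 0.22 (SE 0.12). The dimmest tested probe set of Syt2, 1449866_at, had levels of 8.69, 9.08, 8.66 and 9.06 in Exp 1 to 4, against 8.72, 8.57, 8.25 and 8.34 in Ctrl 1 to 4. Exp 2 and Exp 4 lay above all Ctrl arrays there, while Exp 1 and Exp 3 lay below Ctrl 1. This probe set gave 0.40 (SE 0.15), with an unadjusted p of 0.0280 in limma and an adjusted p of 0.999, and its Ctrl mean of 8.47 lay close to the filter at 8.45. The third probe set of Syt2, 1420418_at, differed by -0.024 (SE 0.14).

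Syt5, a synaptotagmin found on synaptic and dense-core vesicles, had levels of 9.36, 9.30, 9.80 and 9.65 in Exp 1 to 4, against 9.17, 9.59, 8.37 and 9.40 in Ctrl 1 to 4, read by 1 probe set. Ctrl 3 was the lowest array by a wide margin. The difference of 0.40 (SE 0.25) became 0.14 without Ctrl 3, and the interval with all arrays was -0.18 to 0.97, the widest in the set of brightest probe sets. Syt7, a slow sensor of asynchronous release and vesicle replenishment, had levels of 13.48, 13.19, 12.95 and 13.35 in Exp 1 to 4, against 13.22, 13.09, 13.11 and 13.00 in Ctrl 1 to 4 in 1460081_at. Exp 3 was the lowest of all 8 arrays and Exp 1 the highest, and the difference was 0.14 (SE 0.13). A further, dim probe set of Syt7, 1423012_at, ran from 7.37 to 8.86 in Exp and 6.01 to 8.62 in Ctrl and was not tested.

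Syt4 and Syt11 are synaptotagmins that do not act as calcium sensors of fast release. Syt4, which sits on dense-core vesicles, had levels of 13.48, 12.92, 12.84 and 12.87 in Exp 1 to 4, against 13.08, 13.13, 12.95 and 12.62 in Ctrl 1 to 4 in 1415845_at. Exp 1 stood above the other 7 arrays, and the difference was 0.085 (SE 0.18), or -0.068 without Exp 1. The other probe set of Syt4 differed by 0.26 (SE 0.19), with Exp 1 again highest, at 12.14. Syt11, a synaptotagmin involved in membrane retrieval, had levels of 16.45, 16.44, 16.44 and 16.50 in Exp 1 to 4, against 16.44, 15.93, 16.31 and 16.27 in Ctrl 1 to 4 in 1456464_x_at. Ctrl 2 was lowest there, and the difference was 0.22 (SE 0.12). The 4 other tested probe sets of Syt11 differed by between -0.14 and 0.091. In Affymetrix naming the suffix x or s marks a set whose probes may also bind transcripts of other genes, and it is carried by the brightest probe sets of 4 of the 28 genes, Syt11, Stx1a, Rab3a and Cplx2, so the reading of these is less certain.

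The SNARE proteins form the helical bundle that pulls the membranes together. Snap25, the plasma membrane SNARE of nerve endings, had levels of 14.83, 14.66, 14.68 and 14.63 in Exp 1 to 4, against 14.64, 15.09, 14.68 and 14.72 in Ctrl 1 to 4 in 1416828_at. Ctrl 2 was the single high array, and the difference was -0.083 (SE 0.12). Its second probe set, 1447763_at, differed by 0.082 (SE 0.13). Stx1a, its plasma membrane partner syntaxin 1A, had levels of 15.72, 15.94, 15.74 and 15.96 in Exp 1 to 4, against 15.96, 15.86, 15.84 and 15.64 in Ctrl 1 to 4 in 1437390_x_at, with the highest Exp and the highest Ctrl array at the same rounded level. The difference was 0.015 (SE 0.11) there and -0.097 (SE 0.12) in the second probe set, 1448366_at.

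Vamp1 and Vamp2, the synaptobrevins, are the SNAREs on the vesicle. Vamp1 had levels of 9.61, 9.72, 9.80 and 10.03 in Exp 1 to 4, against 9.75, 9.75, 9.58 and 9.86 in Ctrl 1 to 4 in 1421863_at, and Vamp2 had levels of 10.59, 10.95, 11.07 and 10.94 in Exp 1 to 4, against 10.88, 10.89, 10.93 and 10.93 in Ctrl 1 to 4 in 1420834_at. The 4 Ctrl arrays of Vamp2 lay close together, inside the spread of the Exp arrays. The differences were 0.054 (SE 0.12) for Vamp1 and -0.019 (SE 0.12) for Vamp2. The second probe set of each gene lay below the filter, and that of Vamp2, 1420833_at, had a single low array, Exp 4 at 4.83, against 7.82 to 8.43 in the other arrays.

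After fusion the ATPase Nsf and the adaptor Napb (beta-SNAP) take the SNARE bundle apart. Nsf had levels of 13.81, 13.80, 13.99 and 13.68 in Exp 1 to 4, against 13.63, 14.06, 13.87 and 13.83 in Ctrl 1 to 4 in 1422456_at. The groups overlapped over most of their range, and the difference was -0.025 (SE 0.12). Its 3 tested probe sets were lower in Exp by point estimate, with -0.18 as the lowest. Napb ran from 13.23 to 13.57 in Exp and 13.24 to 13.73 in Ctrl in 1423172_at, with a difference of -0.055 (SE 0.14), and 2 of its 5 tested probe sets had positive and 3 negative differences.

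Complexins bind the assembled SNAREs and hold fusion until calcium arrives. Cplx1 had levels of 15.54, 15.73, 15.72 and 15.80 in Exp 1 to 4, against 15.76, 15.95, 15.77 and 15.54 in Ctrl 1 to 4 in 1448832_a_at, with a difference of -0.055 (SE 0.11) and an interval of -0.31 to 0.21. Cplx2 had levels of 12.41, 12.58, 12.78 and 12.52 in Exp 1 to 4, against 11.85, 12.62, 12.50 and 12.36 in Ctrl 1 to 4 in 1455672_s_at. Ctrl 1 was the single low array, and the difference of 0.24 (SE 0.17) was 0.080 without it. A second probe set of Cplx2, 1421477_at, had levels of 12.87, 12.31, 13.00 and 12.53 in Exp 1 to 4, against 12.57, 11.90, 11.76 and 12.59 in Ctrl 1 to 4 and gave the largest positive difference of the 62, 0.47 (SE 0.24), with an unadjusted p of 0.0765 (limma). There Exp 1 and Exp 3 were the high arrays, and Ctrl 2 and Ctrl 3 the low ones. It was the only member of the 62 whose interval, -0.062 to 1.01, reached a doubling.

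Rab3a, the vesicle GTPase that takes part in docking, had levels of 13.57, 14.12, 13.97 and 14.08 in Exp 1 to 4, against 13.64, 14.55, 13.88 and 14.01 in Ctrl 1 to 4 in 1459980_x_at, with Ctrl 2 highest and Exp 1 lowest, and differed by -0.087 (SE 0.20). Rims1, the active zone scaffold that binds Rab3, had levels of 12.39, 12.39, 13.13 and 13.13 in Exp 1 to 4, against 12.74, 13.10, 13.11 and 12.40 in Ctrl 1 to 4 in 1435667_at. Exp 1, Exp 2 and Ctrl 4 lay at the low end, and the other arrays of both groups lay above them. The difference was -0.077 (SE 0.24), and that of the other probe set of Rims1, 1438305_at, was 0.30 (SE 0.16), of the opposite sign.

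Synaptophysin (Syp), an abundant vesicle membrane protein, had levels of 10.97, 11.01, 11.41 and 11.29 in Exp 1 to 4, against 10.92, 11.47, 11.58 and 11.60 in Ctrl 1 to 4 in 1448280_at. Exp 1, Exp 2 and Ctrl 1 were low and Ctrl 3 and Ctrl 4 high, and the difference of -0.22 (SE 0.18) was the lowest among the brightest probe sets. The SV2 proteins are vesicle glycoproteins related to transporters. Sv2a ran from 10.84 to 11.46 in Exp and 10.80 to 11.36 in Ctrl, Sv2b from 10.73 to 11.00 in Exp and 10.40 to 11.27 in Ctrl and Sv2c from 9.47 to 10.10 in Exp and 9.20 to 10.20 in Ctrl. Their differences were 0.084 (SE 0.18), -0.033 (SE 0.18) and 0.048 (SE 0.24), and in each the Ctrl range reached both above and below the Exp mean.

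Synapsins tether vesicles to each other and to actin, and Syn1 is a classic target of the repressor REST, which keeps neuronal genes silent in other cells through the RE1 element. Of the 29 genes, 23 had a promoter in the RefSeq table of build GRCm38.p6, 250 bases before to 50 after each annotated start. Only exact matches on either strand were counted. The left part of RE1, TTCAGCACC, was found in 1 of the 23, Syn1, against 0.433% of the 27025 genes with a promoter. An exact right part, GACAGNGCC, was found in 0 of 23, against 1.74%. In Syn1 the letters gtcagagcc, which differ from the right part in 1 letter, follow closely after the left part and were not counted. The cAMP response element, TGACGTCA, was also found in Syn1 alone of the 23, against 2.03% of all genes. The stretch of the Syn1 promoter that holds both lies at chrX:20921064-20921163 on the minus strand, 245 to 146 bases before the start, and is shown with the left part of RE1 and the cAMP response element in capitals.
Syn1: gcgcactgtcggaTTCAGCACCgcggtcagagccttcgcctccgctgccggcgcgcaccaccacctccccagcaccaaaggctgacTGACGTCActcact
A match of letters is not shown to be a bound site. Syn1 itself had levels of 11.32, 11.34, 11.20 and 11.22 in Exp 1 to 4, against 11.07, 11.47, 11.43 and 11.40 in Ctrl 1 to 4. The groups overlapped, with Ctrl 1 the lowest array, and the difference was -0.074 (SE 0.11).

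Syn2 had the largest number of tested probe sets, 6, and they did not give 1 answer. The brightest, 1428460_at, had levels of 13.34, 13.30, 13.24 and 13.14 in Exp 1 to 4, against 13.12, 13.63, 13.31 and 13.12 in Ctrl 1 to 4 and differed by -0.039 (SE 0.13). A dim one, 1440762_at, had levels of 9.13, 8.36, 9.37 and 9.02 in Exp 1 to 4, against 9.43, 9.44, 9.48 and 9.49 in Ctrl 1 to 4. All 4 Exp arrays lay below all 4 Ctrl arrays, although Exp 3 came close to them and Exp 2 lay far below. It gave the largest negative difference of the 62, -0.49 (SE 0.20), with an unadjusted p of 0.0347 and an adjusted p of 0.999 (limma), and -0.28 without Exp 2. The dimmest, 1449030_at, had levels of 8.62, 8.37, 8.73 and 8.27 in Exp 1 to 4, against 8.69, 8.93, 9.04 and 8.70 in Ctrl 1 to 4, which overlapped through Exp 3, Ctrl 1 and Ctrl 4, and differed by -0.34 (SE 0.14) with an unadjusted p of 0.0363. The remaining 3 differed by -0.10 (SE 0.13), 0.066 (SE 0.12) and -0.22 (SE 0.11). A single Syn2 probe set thus had a positive difference, and the 2 with an unadjusted p under 0.05 were the 2 dimmest.

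The synucleins are small vesicle-binding proteins, and Sncg is abundant in peripheral sensory neurons. Sncg had levels of 14.38, 14.28, 14.53 and 14.30 in Exp 1 to 4, against 14.25, 14.58, 14.47 and 14.50 in Ctrl 1 to 4, with a difference of -0.077 (SE 0.11) and an interval of -0.33 to 0.17. Sncb had levels of 9.87, 10.42, 10.72 and 10.39 in Exp 1 to 4, against 10.48, 10.44, 10.77 and 9.97 in Ctrl 1 to 4, spread over most of 1 log2 unit in both groups, with a difference of -0.066 (SE 0.21). Exp 1 was the low array in Exp and Ctrl 4 in Ctrl.

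Vesicles are filled by transporters driven by a proton pump. Slc17a6 encodes the vesicular glutamate transporter VGLUT2 and Slc17a7 its relative VGLUT1. The brightest probe set of Slc17a6, 1428379_at, had levels of 14.09, 13.95, 14.16 and 14.02 in Exp 1 to 4, against 13.97, 14.00, 13.95 and 13.94 in Ctrl 1 to 4, the tightest spread of the 28 genes, with a pooled SD within groups of 0.067. The difference was 0.093 (SE 0.089), with an interval of -0.11 to 0.29. Its second probe set, 1418610_at, had levels of 11.68, 11.69, 12.45 and 11.94 in Exp 1 to 4, against 11.63, 11.68, 11.46 and 11.53 in Ctrl 1 to 4. No Exp array lay below a Ctrl array, but Exp 1 and Ctrl 2 round to the same level and Exp 3 alone stood well above. The difference was 0.36 (SE 0.17), with an unadjusted p of 0.0631 (limma), and it was 0.20 without Exp 3. That array also had the highest muscle markers, and a link between them and this probe set was not tested.

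Slc17a7 was the 1 gene of the 29 with no tested probe set. Its levels were 7.14, 7.78, 8.26 and 7.43 in Exp 1 to 4, against 8.16, 7.33, 7.36 and 8.08 in Ctrl 1 to 4, below the filter on 8 of 8 arrays, and the groups overlapped. Without the filter its difference was -0.082 (SE 0.30). In both promoters the search found the GC box, GGGCGG or its reverse complement, which was present in 18 of the 23 promoters of the set (78.3%), against 38.2% of all genes with a promoter. The TATA box, TATAAA, was found in 1 of 23 (Sv2b), or 4.35%, against 15.7%, and CCAAT in 6 of 23, or 26.1%, against 41.1%. The last 80 bases before the first annotated start are shown for the tested and the untested transporter, at chr7:51621750-51621829 and chr7:45163841-45163920, both on the plus strand, with GC boxes on either strand in capitals.
Slc17a6: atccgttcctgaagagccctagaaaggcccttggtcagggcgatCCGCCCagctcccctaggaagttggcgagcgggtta
Slc17a7: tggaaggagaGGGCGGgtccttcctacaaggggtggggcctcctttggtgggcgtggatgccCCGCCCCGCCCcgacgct
The window of Slc17a7 holds GC boxes at 70, 18 and 13 bases before the start and that of Slc17a6 at 36 bases before it, so both the gene above the filter and the one below it have the box there.

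Atp6v1b2, the B2 subunit of the vacuolar proton pump, had levels of 13.91, 13.87, 14.26 and 14.08 in Exp 1 to 4, against 13.85, 14.11, 14.26 and 13.98 in Ctrl 1 to 4 in 1415814_at, and differed by -0.019 (SE 0.13). Its second tested probe set differed by -0.017 (SE 0.17). Of 2 probe sets below the filter, 1446465_at lay closest to it, with a mean of 8.41, and ran from 8.29 to 8.77 in Exp and 8.26 to 8.30 in Ctrl.

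Vesicle membrane is recovered by endocytosis. Amph, amphiphysin, which binds curved membrane and recruits dynamin, had levels of 12.75, 12.38, 12.76 and 12.58 in Exp 1 to 4, against 12.21, 12.56, 12.23 and 12.11 in Ctrl 1 to 4. Exp 1, Exp 3 and Exp 4 lay above all Ctrl arrays, and Exp 2 lay below Ctrl 2. The means were 12.62 ± 0.18 in Exp and 12.28 ± 0.19 in Ctrl (SD, n = 4 each), a difference of 0.34 (SE 0.13) and a 1.27-fold difference of signal + 16, with an interval of 0.038 to 0.65. Amph was the only 1 of the 28 brightest probe sets with an unadjusted p under 0.05 (0.0314; adjusted p = 0.999, limma), a share of 3.57%, against 3.73% of all genes (1.47% higher in Exp). Its unadjusted p was above 0.05 without Exp 1, Exp 3, Ctrl 1, Ctrl 3 or Ctrl 4 (up to 0.0829) and when arrays were centred on medians (0.27, unadjusted p = 0.134). Dnm1, dynamin 1, the GTPase that pinches off the vesicle in neurons, had levels of 12.38, 12.38, 12.40 and 12.54 in Exp 1 to 4, against 12.52, 12.59, 12.66 and 12.32 in Ctrl 1 to 4 in 1460365_a_at. Exp 4 was the high array in Exp and Ctrl 4 the low array in Ctrl, and the difference was -0.093 (SE 0.11).

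**Figure D3:**
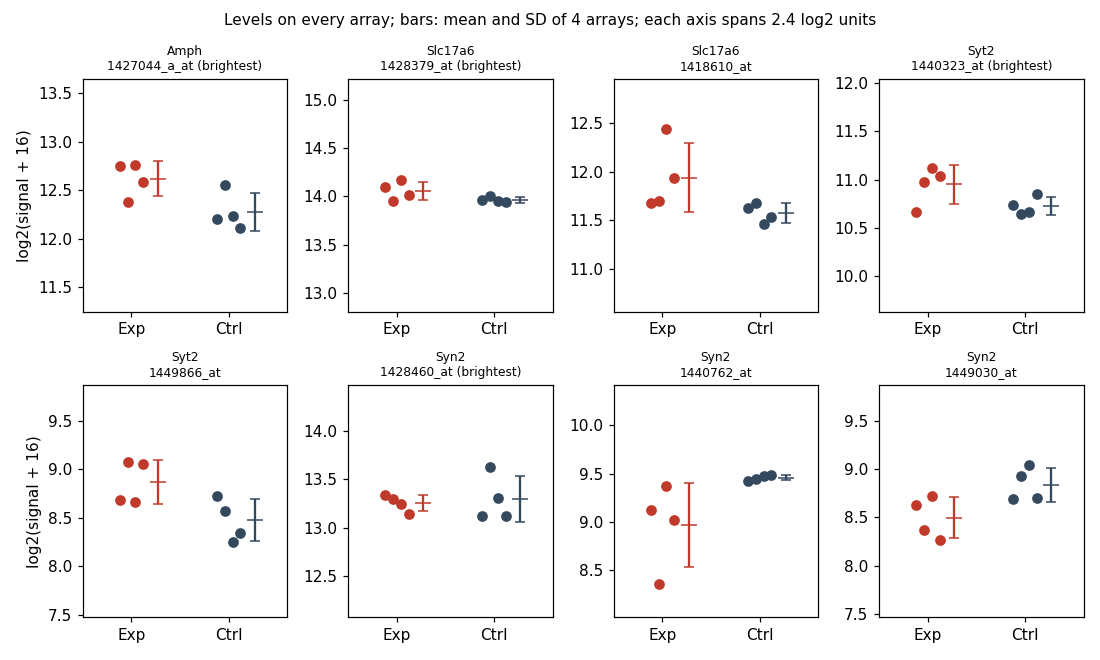
Levels as log2(signal + 16) on every Exp and Ctrl array for Amph, Slc17a6, Syt2 and Syn2, 1 panel per probe set, with the mean and SD of 4 arrays beside the points and an axis of equal length in each panel. The brightest probe sets of Slc17a6, Syt2 and Syn2 overlap between groups, whereas 1418610_at of Slc17a6 and 1440762_at of Syn2 do not, with Exp 3 far out in the first and Exp 2 in the second.

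Whether probe sets of 1 gene differed unequally was tested directly, as the brightest minus each other probe set on every array. Of the 17 genes with several tested probe sets, 3 had positive differences in each (Syt4, Cplx2 and Slc17a6), 4 had negative ones in each (Nsf, Rab3a, Sv2b and Atp6v1b2), and 10 had both signs. None of their 34 pairs passed the 5% false discovery rate over the 9702 pairs of all genes, of which 0% did (limma, smallest adjusted p among the 34 = 0.962). At an unadjusted p under 0.05 there was 1 pair, or 2.94%, against 4.88% of all pairs. It was 1456464_x_at minus 1449264_at of Syt11, with differences of 5.72, 5.50, 5.58 and 5.71 in Exp 1 to 4, against 5.58, 4.99, 5.19 and 5.29 in Ctrl 1 to 4. Ctrl 2 was the low array there, and the groups overlapped. The difference between groups was 0.36 (SE 0.15, unadjusted p = 0.0374), and 0.27 without Ctrl 2. Groups did not overlap in 2 of the 34 pairs, 1 of Syt2 (0.25, SE 0.13) and 1 of Cplx1 (-0.12, SE 0.11), a share of 5.88%, against 2.42% of all pairs.

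The rest of the release machinery was read from a list of 126 further genes, also chosen with earlier results known; the array held 120 of them, and 109 passed the filter. None passed the 5% false discovery rate in limma, 49 were higher and 60 lower in Exp, and the median difference was -0.02. At an unadjusted p under 0.05 there were 4, or 3.67%, against 3.73% of all genes, and all 4 were lower in Exp, where 2.26% of all genes were. Doc2b, a calcium sensor of spontaneous and asynchronous release, had levels of 9.60, 10.12, 9.83 and 9.67 in Exp 1 to 4, against 10.34, 10.51, 10.84 and 10.49 in Ctrl 1 to 4, a difference of -0.74 (SE 0.15) with an unadjusted p of 0.000877 and an adjusted p of 0.641 (limma; 0.494 to 1.00 over the alternatives). Every Exp array lay below every Ctrl array. Unc13c, the priming factor Munc13-3, had levels of 9.49, 9.01, 9.05 and 8.69 in Exp 1 to 4, against 9.52, 10.25, 9.95 and 9.90 in Ctrl 1 to 4, a difference of -0.85 (SE 0.20) with an adjusted p of 0.852 (limma; 0.494 to 1.00 over the alternatives). Exp 1 came closest to the Ctrl arrays, and the groups did not overlap.

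The other genes of that list named by the rule had differences of smaller size. Rab3gap1, the catalytic subunit of the enzyme that switches Rab3 off, differed by -0.31 (SE 0.12), Doc2a, the relative of Doc2b, by -0.34 (SE 0.13) and Stxbp6 (amisyn), a SNARE-binding protein, by -0.45 (SE 0.21). Higher by point estimate were Erc1, an active zone scaffold, by 0.36 (SE 0.16), Rab3gap2, the partner of Rab3gap1, by 0.35 (SE 0.17), Syt14 by 0.22 (SE 0.11), Unc13a, the priming factor Munc13-1, by 0.35 (SE 0.21) and Stxbp5l (tomosyn-2) by 0.38 (SE 0.27). Groups did not overlap in 4 of the 109, or 3.67%, against 2.25% of all genes, and these were Doc2b, Unc13c and Rab3gap1, lower in Exp (1.24% of all genes), and Unc13a, higher in Exp (1.01%). Over all genes, 54.8% were lower in Exp by point estimate. By role, 8 of 10 further synaptotagmins and calcium-binding factors were lower in Exp by point estimate, as were 14 of 24 SNAREs and partners, 8 of 24 active zone and Rab proteins, 7 of 10 vesicle membrane proteins, 9 of 15 transporters and pump subunits and 14 of 26 retrieval proteins.

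**Figure D4:**
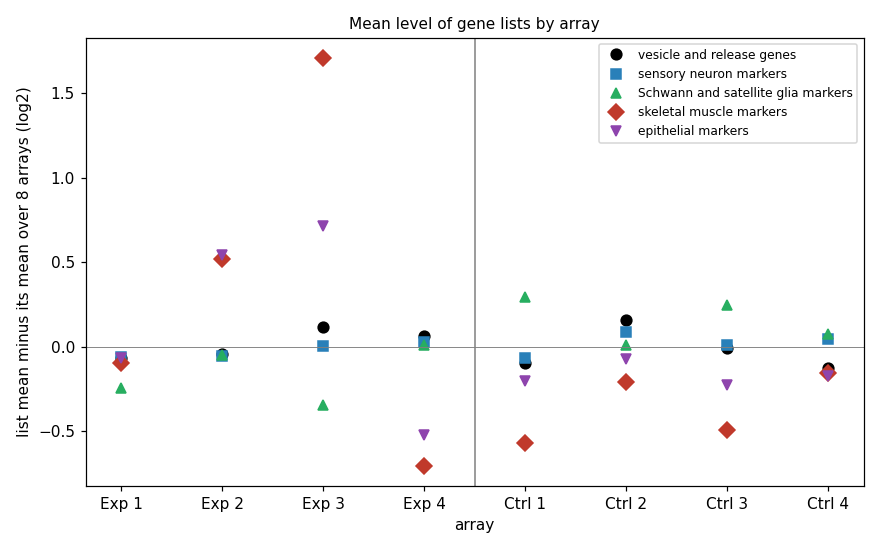
Mean level of 5 gene lists on each array minus the mean of that list over the 8 arrays, in log2 units, with Exp left of Ctrl. The vesicle and release genes and the sensory neuron markers stay close to their means on every array (-0.12 to 0.16 for the vesicle and release genes), while skeletal muscle markers reach far above in Exp 3. Schwann and satellite glia markers are higher in the Ctrl arrays, with Ctrl 2 and Exp 4 nearly level. Epithelial markers are highest in Exp 3 and Exp 2 and lowest in Exp 4.

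Control probe sets at both ends of a transcript give a measure of RNA quality. The log2 ratio of the 3' to the 5' probe set of the actin control was 4.55 ± 0.12 in Exp and 4.36 ± 0.07 in Ctrl (SD, n = 4 each, exact two-sided permutation p = 0.0571, smallest possible p 0.0286), and that of the Gapdh control was 4.14 ± 0.04 in Exp and 4.19 ± 0.23 in Ctrl (exact permutation p = 0.743). On every array of both groups the 3' probe set was thus far brighter than the 5' one. The log2 ratio on single arrays ran from 4.31 to 4.67 for actin and from 3.87 to 4.37 for Gapdh. Similar ratios in Exp and Ctrl do not show that the 5' parts of transcripts were read well. The part of RNA quality, and of the glial and muscle content given above, in the levels of the vesicle genes was not tested. Nor was the part of RNA quality in dim probe sets, or in probe sets of a gene that disagreed.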

How the data were processed

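Gene expression was measured in total RNA on 8 arrays, 4 Exp and 4 Ctrl, grouped and numbered from the sample titles. The deposited values are linear probe set intensity values, and the step from scans to values by the authors is not stated in the labels. The 2% trimmed mean of each array was 2500, and array medians lay between 478 and 553. Such scaling makes differences relative to the bulk of the transcripts. The number of arrays limits the precision.

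Values were taken as log2(signal + 16) and quantile normalized, and 64 control probe sets were left out. The test was run on the 27022 probe sets at or above the 40th percentile of mean level (signal 333), with lmFit and eBayes of limma 3.58.1 in R 4.3.3, two-sided, and p-values were adjusted by Benjamini-Hochberg across these. Differences between probe sets of a gene were fitted the same way over 9702 pairs. The pipeline was tested on simulated data. Gene names came from the platform annotation, updated through the RefSeq table of GRCm38.p6. Promoters came from RefSeq, 23 of 29 genes matching.

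The members and all lists were chosen with earlier results of these data known. All 29 genes were named. Values on every array were to be given for genes with an unadjusted p under 0.05, groups that did not overlap or unequal probe sets, and for a bright member of each role, and of the wider list the 5 smallest p per direction were named. Array values of other members were added after they were seen. Alternatives were other pseudocounts, filters and normalizations, a replicate block, other eBayes options, array weights, a covariate for sex and leaving out arrays. Figures were drawn with matplotlib 3.10.9.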

Additional observations from a re-analysis of the deposited data

Results flagged for a closer look

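Single arrays that stood apart from the other 3 of their group were sought with Dixon's gap criterion at the 95% level, in both groups of each of the 62 tested probe sets. There were 6 in 124 groups, and chance flags about 1 in 20, or 6.2. Exp 1 lay apart as low in 1431191_a_at of Syt1, at 8.48 (the other 3 arrays 8.72 to 8.77), and as high in 1415845_at of Syt4, at 13.48 (the other 3 arrays 12.84 to 12.92). Exp 4 lay apart as high in 1456464_x_at of Syt11, at 16.50 (the other 3 arrays 16.44 to 16.45), and in 1460365_a_at of Dnm1, at 12.54 (the other 3 arrays 12.38 to 12.40). Ctrl 2 lay apart as high in 1416828_at of Snap25, at 15.09 (the other 3 arrays 14.64 to 14.72), and in Sv2a, at 11.36 (the other 3 arrays 10.80 to 10.88).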

How the results depend on the processing

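Under the 20 alternatives the number of vesicle and release probe sets past the 5% false discovery rate stayed at 0. The number of pairs of probe sets past it was 0 over all genes. Among the vesicle and release probe sets and pairs that were followed singly, the smallest adjusted p was 0.574 (limma). The median difference of the genes ran from -0.051 (arrays centred on medians) to 0.065 (without Ctrl 2). The number of all tested probe sets past the threshold, 1, was 0 without a filter, with a filter at the 60th percentile, with the replicate block and with Eif2s3y, a Y-linked gene, as a covariate, and 0 to 1 in the fits without 1 array; the causes were not tested. The deviations of same-numbered arrays from their group means correlated at between -0.12 and 0.05, and those of differently numbered arrays at between -0.17 and 0.20. No shared effect of the replicate number was thus seen. The labels do not say whether the arrays were paired by origin, and these correlations cannot decide it. The replicate block left Amph at 0.34 (unadjusted p = 0.0746) and changed no call among the vesicle and release genes. The 4 vesicle and release probe sets at an unadjusted p under 0.05 numbered 1 with the filter at the 60th percentile, since fewer were tested, and 0 to 6 in the fits without 1 array. With that filter the dimmer of the named probe sets had no value. Of 45 single probe sets and pairs, 28 kept their sign in every alternative run and 17 did not. Outside the fits without 1 array these were Cplx1 without quantile normalization (0.00024), Syt1 with arrays centred on medians (-0.042) or weighted (-0.0086), and, without both Exp 2 and Exp 3, Syt1 (-0.094), Sv2a (-0.044) and Sv2b (0.040). In the fits without 1 array the ranges that crossed 0 were Syt4 -0.068 to 0.15, Vamp2 -0.079 to 0.080, Rab3a -0.21 to 0.089, Rims1 -0.22 to 0.047, Sncb -0.21 to 0.093, Atp6v1b2 -0.094 to 0.050, Syt1 -0.072 to 0.096, Stx1a -0.047 to 0.060, Napb -0.13 to 0.033, Sv2a -0.055 to 0.22, Sv2b -0.20 to 0.091, Sv2c -0.13 to 0.20, Vamp1 -0.024 to 0.11, Nsf -0.097 to 0.044, Snap25 -0.13 to 0.019, Cplx1 -0.13 to 0.0096 and Syn2 -0.098 to 0.072, each in the brightest probe set; none of these genes had passed the threshold. Values near the filter carry no detection call here, and a pseudocount of 16 shrinks differences of dim probe sets.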
